A study of Mus musculus with 6 samples.

Results

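The 37 genes described here encode actins, the myosins and accessory proteins that let actin filaments contract, the proteins that anchor filaments at focal adhesions, and the transcription factor SRF with its cofactors. They were chosen by name, with earlier results of these data known, and all 37 had a row in an mRNA table of 22127 genes. Actin monomers polymerise into filaments, myosin pulls on those filaments once its regulatory light chain is phosphorylated, and tropomyosin, calponin and caldesmon control its access to them. SRF binds a short A- and T-rich DNA element, the CArG box. Its cofactors of the MRTF family are held by free actin monomers in the cytoplasm and enter the nucleus as monomers are used up, so many genes for actin and its partners are SRF targets. In the testis, smooth muscle actin is a classical marker of the peritubular myoid cells that surround the tubules, and not of germ cells.

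The samples were cultures of GC-2 spd(ts), a mouse line derived from spermatocytes and immortalised with large T antigen together with p53 that works only at low temperature, and every group carries both. One culture received 120 µM bisphenol A (BPA), a plastic monomer, for 48 h in medium with 10% serum, and the control culture received the same medium with 0.1% dimethyl sulfoxide, after 12 h without serum in both. The RNA of each culture was split to make 1 mRNA, 1 miRNA and 1 circRNA library, so each comparison sets 1 BPA library against 1 control library, has no replicate check and permits no test of the treatment. The intervals below are exact 95% intervals that cover counting error only, since PCR copies of a molecule were not marked and may be counted repeatedly.

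The mRNA libraries held 33071378 reads with BPA and 32312872 in control, and the 37 genes took up 1.56% and 2.11% of them. Their median rank among all genes lay at percentile 96.5 of expression, and 21 of them had over 10000 reads in both libraries together. The spermatocyte label was checked against 18 meiotic and germ cell markers, of which 5 had a row among the genes analysed here. Sycp1, Dmc1, Stra8 and Dazl were among those without one. Hspa2, a chaperone of spermatocytes, had 588 reads with BPA and 411 in control, the synaptonemal protein Sycp3 had 0 and 6, and the germ cell helicase Ddx4 had 9 and 0. Meioc was at 0 with BPA, and Hormad2 had 17 reads with BPA and 4 in control. All 5 summed to 18.6 RPM (reads per library total, scaled to the same size) with BPA and 13.1 RPM in control. Hspa2 alone gave 17.8 and 12.7 RPM of these sums, so the other germ cell markers were near 0 in both libraries. Peritubular and fibroblast markers summed to 3031 RPM with BPA, against 5498 RPM in control, over 10 of 12 markers, with Dcn and Fap at 0 in control. The most abundant were Col1a1, at 1190 RPM with BPA and 2452 RPM in control, and Vim, at 1102 and 1600 RPM. All 8 of these markers with at least 10 reads had a ratio below 0, and their part in the results below was not tested. Sertoli markers (8 of 10) summed to 152 RPM with BPA and 131 RPM in control, with none at 0. Epithelial markers (5 of 10) summed to 3.84 RPM with BPA and 8.36 RPM in control, with Cldn7 and Ocln at 0 in control.

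Some promoters of the 37 genes hold CArG boxes, and they are shown first because SRF is a known regulator of many of these genes. RefSeq windows on GRCm38.p6, 300 bases from 250 before the transcription start to 50 after it, were found for 33 of the 37 genes, and the box was read as CC, then 6 bases that are each A or T, then GG, a pattern that matches itself on the other strand. A match was present in 9 of the 33 genes (27.3%), against 488 of 27025 genes in the whole promoter table (1.81%). With 1 mismatch allowed, 18 of 33 (54.5%) had a match, against 23.8% of all genes. Capitals mark the exact matches in the promoters of Srf itself (chr17:46556113-46556412, minus strand), of the cytoplasmic actin gene Actg1 (chr11:120348446-120348745, minus strand) and of the vinculin gene Vcl (chr14:20929148-20929447, plus strand). In the smooth muscle actin gene Acta2 (chr19:34255324-34255623, minus strand), which has no exact match, capitals mark the 2 matches with 1 mismatch.
Srf: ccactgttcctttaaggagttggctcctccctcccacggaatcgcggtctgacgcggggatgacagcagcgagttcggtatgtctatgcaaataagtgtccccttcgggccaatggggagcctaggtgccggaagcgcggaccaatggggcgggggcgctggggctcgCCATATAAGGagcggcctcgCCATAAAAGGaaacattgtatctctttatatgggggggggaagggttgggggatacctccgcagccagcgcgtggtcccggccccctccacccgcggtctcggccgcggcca
Actg1: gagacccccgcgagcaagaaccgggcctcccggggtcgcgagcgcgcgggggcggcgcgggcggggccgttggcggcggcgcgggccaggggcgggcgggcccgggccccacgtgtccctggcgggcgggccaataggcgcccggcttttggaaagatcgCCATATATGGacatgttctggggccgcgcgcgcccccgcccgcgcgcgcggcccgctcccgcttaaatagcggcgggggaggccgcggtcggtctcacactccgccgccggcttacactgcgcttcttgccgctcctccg
Vcl: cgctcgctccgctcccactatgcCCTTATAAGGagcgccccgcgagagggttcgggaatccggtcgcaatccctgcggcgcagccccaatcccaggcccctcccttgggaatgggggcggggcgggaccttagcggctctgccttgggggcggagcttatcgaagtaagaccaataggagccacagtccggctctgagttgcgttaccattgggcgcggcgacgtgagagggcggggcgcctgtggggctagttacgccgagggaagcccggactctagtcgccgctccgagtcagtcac
Acta2: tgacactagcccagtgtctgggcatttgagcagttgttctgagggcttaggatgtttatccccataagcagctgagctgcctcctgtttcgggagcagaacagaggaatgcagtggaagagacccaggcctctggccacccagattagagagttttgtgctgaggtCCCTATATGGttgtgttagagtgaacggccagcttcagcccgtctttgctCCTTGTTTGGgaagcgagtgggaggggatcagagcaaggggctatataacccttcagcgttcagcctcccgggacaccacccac

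The other exact matches are shown in 30 bases of the gene's own strand, with the box in capitals. They began 161 bases before the start in Myl9, 56 in Cnn2, 62 in Filip1l and 102 in Fhl1. In Fhl2 the matches stood 31 and 96 bases before different annotated starts, and in Myl6 the match stood 50 bases before 1 of its 2 starts.
Myl9: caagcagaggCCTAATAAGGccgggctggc
Cnn2: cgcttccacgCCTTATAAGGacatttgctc
Filip1l: atgccgcgcgCCTTATAAGGctgagcggtg
Fhl1: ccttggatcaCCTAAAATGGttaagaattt
Fhl2: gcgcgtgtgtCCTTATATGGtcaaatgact
Fhl2, other start: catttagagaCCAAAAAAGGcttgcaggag
Myl6: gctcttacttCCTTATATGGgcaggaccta

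The main mRNA comparison asked which of these genes differed between exposed and vehicle-treated cells. Nearly all of them were lower in the BPA library, most by less than 2-fold. Of the 37 genes, 36 had at least 10 reads in both libraries together and were compared, and Myh11, with 9 reads with BPA and 0 in control, was not. The log2 ratio of BPA over control, taken on the authors' normalised values with 1 added, was below 0 for 33 of the 36 genes, where 48.1% of all 16870 genes compared were below 0. At least 2-fold lower were 6 of them, where 4.61% of all genes were, and 0 were at least 2-fold higher, where 6.88% of all genes were. At 1.5-fold, 14 were lower and 0 higher, beside 10.2% and 13.3% of all genes. The median log2 ratio of the 36 was -0.45, and that of all genes compared was 0.02. The counting interval lay wholly below 0 for 33 of the genes, wholly above 0 for 1 and held 0 for 2, where 26.5% of all genes lay wholly below 0 and 28.2% wholly above. In bulk RNA, fewer cells of a type and less RNA per cell cannot be told apart.

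Abundant genes tended to lie below 0 in these libraries, and most of the 37 are abundant. Of the 1370 genes with at least 10000 reads in both libraries together, 71.3% had a ratio below 0, 0.803% were at least 2-fold lower, 1.02% at least 2-fold higher, and the median was -0.13. At that level 20 of 21 of the actin and SRF genes were below 0, 2 were at least 2-fold lower, and their median was -0.47. At least 1000 reads were had by 31 of the 37 genes, of which 3 were 2-fold lower, where 0.985% of all genes at that level were. When the running median of the genes nearest in level was subtracted from each ratio, 32 of 36 were below 0, 5 were at least 2-fold lower, and their median was -0.34. With that subtraction 49.8% of all genes were below 0, 5.2% at least 2-fold lower and 6.02% at least 2-fold higher. The ratios of Myl12a, Tpm3 and Mylk changed sign under it, to 0.05, 0.02 and -0.04, and that of Zyx became -0.84. The ratios below are given without the subtraction.

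**Figure D1:**
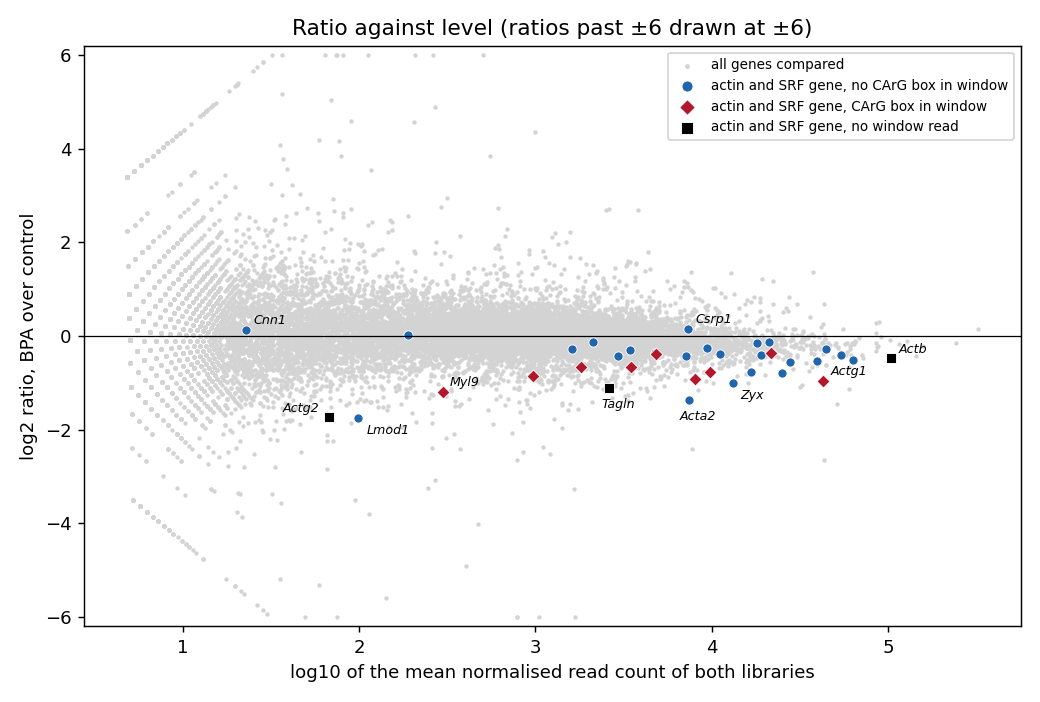
Log2 ratio of BPA over control (vertical axis) against the log10 mean normalised read count of both libraries (horizontal axis) for the 16870 genes compared, with the 36 actin and SRF genes as large marks. Red diamonds have an exact CArG box in the promoter window, blue circles have no exact box, and black squares are genes with no window read. Grey ratios past the axis are drawn at its edge. The large marks lie mostly right of the middle and below 0, and the grey cloud also dips below 0 at its right end.

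SRF and its cofactors were all lower in the BPA library, Srf most. Srf (chromosome 17, 46548329 to 46556175 on GRCm38), which encodes the DNA-binding factor, had 2815 reads with BPA and 4137 in control, a log2 ratio of -0.67 (interval -0.74 to -0.60). Its promoter, printed above, is the only one of the 33 read here with a pair of exact CArG boxes in a single window. Mkl1, the cofactor MRTF-A, had 3219 reads with BPA and 3646 in control, a ratio of -0.29 (-0.36 to -0.22). Mkl2, the cofactor MRTF-B, had 1515 reads with BPA and 1701 in control, a ratio of -0.28 (-0.38 to -0.18). Both cofactors were thus nearer to the control level than the factor they serve.

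The smooth muscle contractile genes were the lowest group, and they were also uneven. The median log2 ratio over 10 of its 11 genes was -0.95, 8 of the 10 were below 0 and 5 were at least 2-fold lower. Among all genes compared, the shares were 48.1% below 0 and 4.61% at least 2-fold lower. Acta2, smooth muscle α-actin (chromosome 19, 34241090 to 34255590), had 4340 reads with BPA and 10324 in control. That left 38.9% of the control level, a log2 ratio of -1.36 (-1.41 to -1.31). Actg2, the enteric smooth muscle actin, was scarce, with 32 reads with BPA and 101 in control, a ratio of -1.74 (-2.39 to -1.18). Lmod1, a leiomodin that nucleates actin filaments in smooth muscle, had 46 reads with BPA and 146 in control and the lowest ratio of the 36, -1.76 (-2.29 to -1.29). The wide intervals of Actg2 and Lmod1 reflect their few reads and overlap that of Acta2.

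Tagln (chromosome 9, 45929619 to 45936058) encodes SM22α, an actin-binding protein of contractile cells. It had 1708 reads with BPA and 3431 in control, a ratio of -1.12 (-1.20 to -1.03). An antisense gene, Gm48529, covers 62.4% of its exon bases on the opposite strand and had 59 reads with BPA and 95 in control, few beside those of Tagln. Myl9, the regulatory light chain of smooth muscle myosin, had 189 reads with BPA and 399 in control, a ratio of -1.19 (-1.45 to -0.94) whose interval reaches to both sides of 2-fold. Tpm1, an abundant tropomyosin, had 19175 reads with BPA and 30741 in control, a ratio of -0.79 (-0.82 to -0.77). Cald1, which encodes the filament-binding caldesmon, had 23469 reads with BPA and 31985 in control, a ratio of -0.56 (-0.58 to -0.53). Tpm2 was nearer to control, with 2599 reads with BPA and 3237 in control and a ratio of -0.43 (-0.50 to -0.35).

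Not every smooth muscle gene was lower. Mylk, the kinase that phosphorylates the regulatory light chain, had 198 reads with BPA and 181 in control, and its ratio of 0.02 had an interval that held 0 (-0.28 to 0.32). Cnn1, smooth muscle calponin, had 25 reads with BPA and 21 in control, and its ratio of 0.13 lay in an interval from -0.76 to 1.05 that would allow a difference of 1.5-fold either way. Myh11, the smooth muscle myosin heavy chain and the most specific marker of mature smooth muscle, had 9 reads with BPA and 0 in control, where a count of 0 allows up to 0.0928 RPM. Myh11 and Cnn1 were thus at or near 0 in both libraries, while Acta2 and Tagln were not. Smtn, smoothelin, another smooth muscle gene, was lower, with 2598 reads with BPA and 3007 in control, a ratio of -0.32 (-0.40 to -0.25). It is named here after its values were seen.

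**Figure D2:**
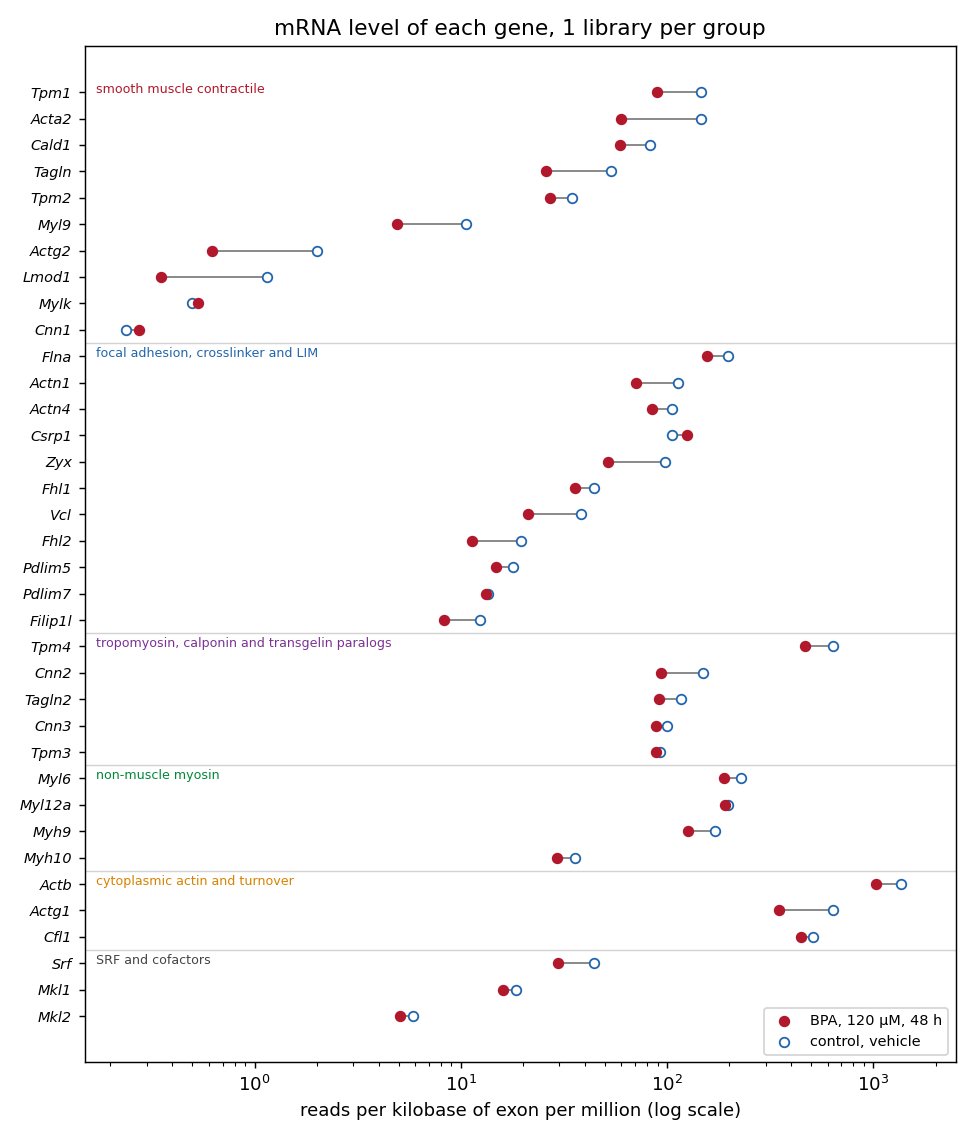
mRNA level of the 36 actin and SRF genes compared, in reads per kilobase of exon relative to the library total, RPKM (horizontal axis, log scale), by group of genes (rows, highest control level first in each group). Filled red points are the BPA library and open blue points the control library, 1 library each. The pair of points is widest apart for Actg2, Lmod1, Acta2, Myl9 and Tagln, and BPA lies to the right only for Mylk, Cnn1 and Csrp1.

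Actb was the most abundant transcript of the set, by reads and per length. Per length, Actb was at 1032 RPKM (reads per kilobase of exon relative to the library total) with BPA and 1354 RPKM in control. On the same scale Actg1 was at 347 RPKM with BPA and 637 in control, and Acta2 at 59.8 with BPA and 145 in control. Actb (chromosome 5, 142903115 to 142906754), β-actin, had 91432 reads with BPA and 117215 in control, a log2 ratio of -0.47 (-0.48 to -0.46). It is often used as a reference gene for expression, and here it was at 72.2% of the control level. Actg1 (chromosome 11, 120345690 to 120348542), γ-actin, had 30482 reads with BPA and 54752 in control, a ratio of -0.96 (-0.98 to -0.94). Its value is uncertain, because 37.4% of the 50-base stretches of its transcripts also occur in transcripts of other genes, most of them in the copy Gm12715. That copy had 10544 reads with BPA and 14471 in control, and Actg1 with Gm12715 together had 41026 reads with BPA and 69223 in control, a ratio of -0.87 (-0.88 to -0.85). Cfl1, cofilin, which severs old filaments, had 41694 reads with BPA and 46860 in control, a ratio of -0.28 (-0.30 to -0.26). Snx32 covers 16.5% of its exon bases on the opposite strand, with 393 reads with BPA and 264 in control. Shared 50-base stretches made up 9.12% of Actb and 7.25% of Cfl1. Of these 3 genes Actg1 was the lowest, and it alone has an exact CArG box in the window read, though no window was read for Actb.

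Non-muscle myosin genes differed less, and none was 1.5-fold lower. Myh9, the heavy chain of non-muscle myosin IIA, had 53813 reads with BPA and 71485 in control, a log2 ratio of -0.52 (-0.54 to -0.51). Myh10, the heavy chain of myosin IIB, had 10103 reads with BPA and 12107 in control, a ratio of -0.37 (-0.41 to -0.33). Myl6, the essential light chain, had 19774 reads with BPA and 23455 in control, a ratio of -0.36 (-0.39 to -0.33), and 8.38% of its 50-base stretches occur elsewhere. The regulatory light chain Myl12a was almost level, with 21193 reads with BPA and 21346 in control and a ratio of -0.12 (-0.15 to -0.09). It shares 16.4% of its 50-base stretches with other genes, chiefly its neighbour Myl12b, which had 3406 reads with BPA and 2660 in control. The median of the 4 genes was -0.37.

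The tropomyosin, calponin and transgelin paralogs listed outside the smooth muscle group had a median of -0.43 over 5 genes, all below 0. All 5 had at least 10000 reads, a level at which 71.3% of all genes were below 0, with a median of -0.13. Reads were counted per gene, so splice forms, as of Tpm1 and Cald1 above, were not told apart. Cnn2, a calponin of non-muscle cells, was the lowest, with 7558 reads with BPA and 11872 in control and a ratio of -0.76 (-0.80 to -0.72). Tpm4, the most abundant tropomyosin gene per length, had 33946 reads with BPA and 45255 in control, a ratio of -0.53 (-0.55 to -0.51). Tagln2, the widely expressed relative of Tagln, had 6290 reads with BPA and 7866 in control, a ratio of -0.43 (-0.48 to -0.39). Cnn3, an acidic calponin, and Tpm3 were closest to 0. Cnn3 had 8914 reads with BPA and 9792 in control, a ratio of -0.25 (-0.29 to -0.21), and Tpm3 had 17776 and 18228, a ratio of -0.15 (-0.18 to -0.12). Of the 50-base stretches of Tpm3, Tpm4 and Cnn3, 23.2%, 11.7% and 10.3% occur in other genes, and Gm42928 covers 17.7% of the Cnn3 exon bases on the opposite strand, with 27 reads with BPA and 34 in control.

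Focal adhesion, crosslinker and LIM-domain genes ranged from 2-fold lower to slightly higher, with a median of -0.41 over 11. Zyx (chromosome 6, 42349630 to 42360213), zyxin, which gathers on stress fibres under tension, had 9161 reads with BPA and 17022 in control, a ratio of -1.01 (-1.04 to -0.97). It lies just past the 2-fold line and its interval reaches to both sides of it. Scaled by library totals its ratio was -0.93, short of 2-fold. Vcl, vinculin, which links adhesions to actin, had 5760 reads with BPA and 10123 in control, a ratio of -0.92 (-0.97 to -0.88). The gene Ap3m1 covers 25.5% of the Vcl exon bases on the opposite strand and lay the other way, with 3012 reads with BPA and 2049 in control. Fhl2, a LIM-only cofactor that SRF itself regulates, had 714 reads with BPA and 1194 in control, a ratio of -0.85 (-0.99 to -0.72). Actn1, the crosslinker α-actinin 1, had 12921 reads with BPA and 20263 in control, a ratio of -0.76 (-0.79 to -0.73), whereas its paralog Actn4 had 17069 and 20952, a ratio of -0.41 (-0.44 to -0.38). The intervals of the actinin pair do not overlap.

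The remaining adhesion genes lay between -0.67 and 0.16. Filip1l had 1455 reads with BPA and 2138 in control, a ratio of -0.67 (-0.76 to -0.57). Flna, filamin A, which joins filaments into networks, had 48723 reads with BPA and 59655 in control, a ratio of -0.40 (-0.42 to -0.39). The LIM genes Fhl1 and Pdlim5 were close to it, at -0.38 from 4368 reads with BPA and 5276 in control, and at -0.37 from 4324 and 5157. Pdlim7, a PDZ and LIM protein of stress fibres, had 2113 reads with BPA and 2129 in control, a ratio of -0.12 (-0.21 to -0.03). Csrp1, a cysteine-rich LIM protein of smooth muscle and fibroblasts, was the exception, with 8053 reads with BPA and 6665 in control and a ratio of 0.16 (0.11 to 0.21). It was the 1 gene of the 36 whose interval lay wholly above 0.

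**Figure D3:**
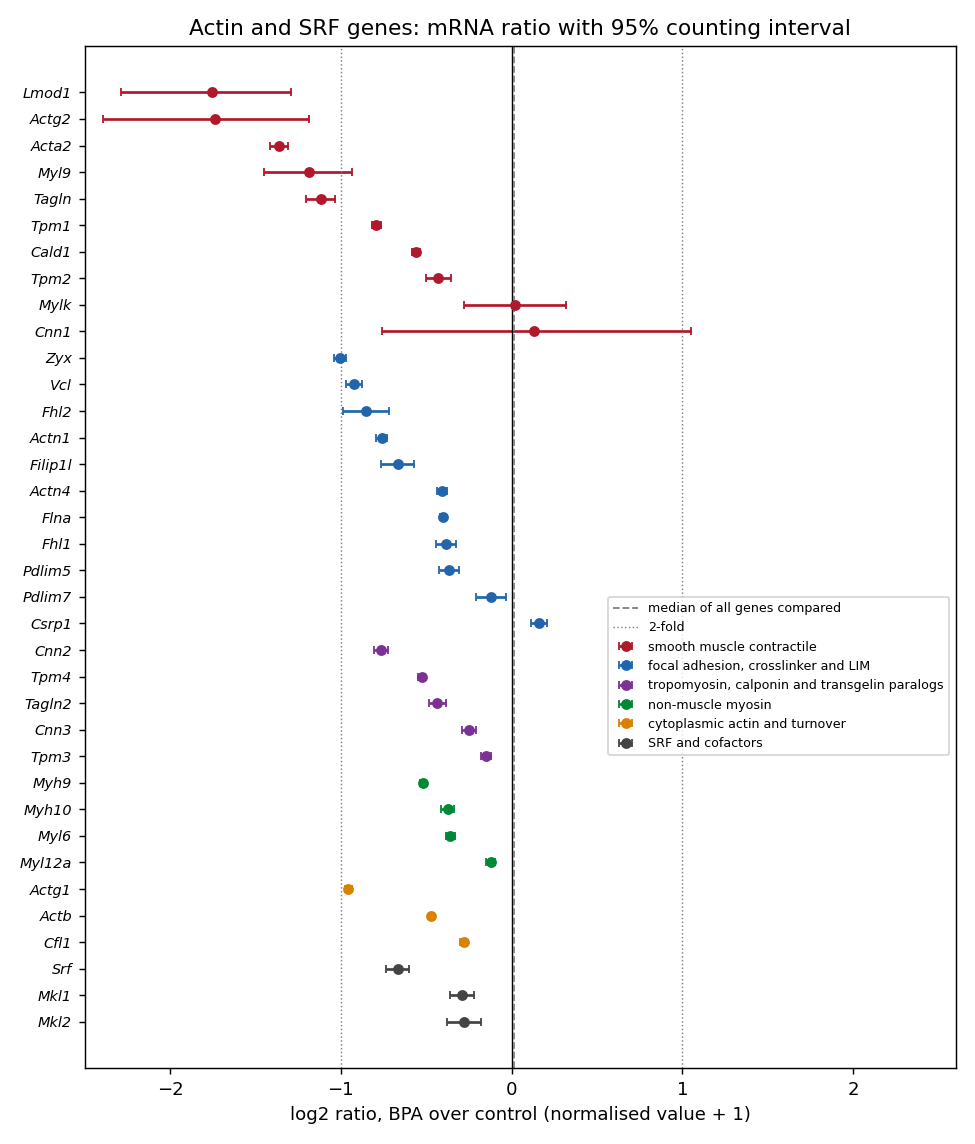
Log2 ratio of BPA over control for the 36 actin and SRF genes compared (points, coloured by group of genes) with exact 95% counting intervals (bars). Dotted lines mark 2-fold, the solid line 0 and the dashed line the median of all genes compared, 0.02. The 6 genes at or past the left dotted line are Lmod1, Actg2, Acta2, Myl9, Tagln and Zyx, and Csrp1 alone has an interval wholly right of 0.

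Within families the smooth muscle form took a smaller share of the reads in the BPA library for actins, transgelins and regulatory light chains. For tropomyosins the answer turned on which genes were counted. For calponins and myosin heavy chains that share was larger with BPA, from few reads. Comparing shares within a family needs no scaling between libraries. Acta2 and Actg2 made up 3.46% of the reads of the 4 actin genes with BPA (interval 3.36% to 3.56%) and 5.72% in control (5.61% to 5.82%), with the shared stretches of Actg1 and Actb counted as deposited. Tagln made up 21.4% of the transgelin reads with BPA (20.5% to 22.3%) and 30.4% in control (29.5% to 31.2%). For regulatory light chains Myl12b was not counted, and Myl9 made up 0.884% of the reads of Myl9 and Myl12a with BPA (0.763% to 1.02%). In control it made up 1.83% (1.66% to 2.02%). These 3 shares have intervals that do not overlap between the libraries. Tpm2 alone, the gene taken as the smooth muscle tropomyosin here, did not follow, with 3.54% of the tropomyosin reads with BPA (3.40% to 3.67%) and 3.32% in control (3.21% to 3.44%). Among tropomyosins it was Tpm1 that had the smaller share, 26.1% with BPA and 31.5% in control, and Tpm3 the larger, 24.2% with BPA and 18.7% in control. With Tpm1, which is listed among the contractile genes above, counted beside Tpm2, the pair made up 29.6% with BPA and 34.9% in control. Cnn1 had 0.152% of the calponin reads with BPA and 0.0968% in control, with overlapping intervals. Myh11 had 0.0141% of the myosin heavy chain reads with BPA (0.00644% to 0.0267%), from 9 reads. The exact interval of its 0 of 83592 reads in control reached to 0.00441%. These intervals do not overlap either, and here the share was larger with BPA.

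**Figure D4:**
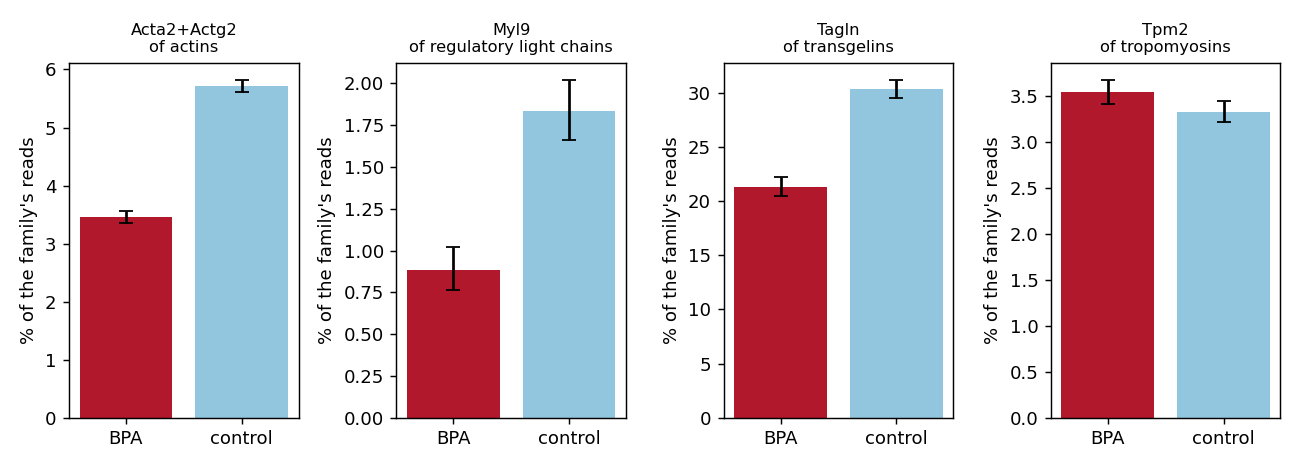
Share of a gene family's mRNA reads (vertical axes, percent, each from 0) that came from its smooth muscle member or members (Tpm2 alone for tropomyosins), in the BPA library (red, left) and the control library (blue, right), with exact binomial 95% intervals as error bars. The BPA bar is lower for actins (3.46% and 5.72%), regulatory light chains (0.884% and 1.83%) and transgelins (21.4% and 30.4%). It is slightly higher for tropomyosins (3.54% and 3.32%). Regulatory light chains here are Myl9 and Myl12a, without Myl12b. Calponins and myosin heavy chains, whose smooth muscle share was larger with BPA, are not drawn.

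Genes with and without an exact CArG box in the promoter window were set side by side as a description. The 9 genes with an exact box were all below 0, with a median log2 ratio of -0.76. The 24 genes compared whose windows held none had a median of -0.39, and 21 of them were below 0. Outside the 37 genes, 169 genes compared had a box, with a median of 0.00 and 50.3% of them below 0. Of these 169, 10 (5.92%) were at least 2-fold lower and 12 (7.10%) at least 2-fold higher. The 10754 others with a window and no box had a median of 0.03, and 46.2% of them were below 0. At least 2-fold lower were 335 (3.12%) of them, and at least 2-fold higher 676 (6.29%). Among those with at least 1000 reads, 1 of 109 genes with a box was 2-fold lower and 5 were 2-fold higher, beside 55 and 92 of 6727 without. Of the actin and SRF genes, 1 of the 9 with an exact box and 3 of the 24 without were at least 2-fold lower, where 4.61% of all genes compared were. Acta2 and Lmod1, counted among those 3, each held 2 matches with 1 mismatch. Tagln and Actg2, also at least 2-fold lower, had no window and are in neither group, nor are Actb and Myh11. The difference between these groups of genes was not tested.

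Other genes of the pathway, taken from 6 lists that cover actin turnover, adhesion and further SRF targets, had list medians from -0.51 to 0.00. Those lists too were drawn up with earlier results of these data known. Of all genes compared, 48.1% were below 0, 4.61% at least 2-fold lower and 6.88% at least 2-fold higher, with a median of 0.02. Among all genes with at least 10000 reads, 71.3% were below 0, with a median of -0.13. Of 39 further focal adhesion and stress fibre genes compared, 33 were below 0, 1 was at least 2-fold lower and 0 were 2-fold higher, with a median of -0.35. Sorbs2, an adaptor of stress fibres, had 218 reads with BPA and 441 in control, a ratio of -1.12 (-1.37 to -0.89). The LIM proteins Ablim1 and Pdlim2 followed at -0.97 and -0.95. A list drawn up as shared targets of MRTF and the coactivator YAP, whose members were not tested as MRTF targets, had all 10 genes below 0. Its median was -0.51 and 1 was at least 2-fold lower. That was the matrix protein Thbs1, with 28649 reads with BPA and 72559 in control, a ratio of -1.45 (-1.47 to -1.43), ahead of Ctgf at -0.99 and the YAP partner Tead1 at -0.73. Of 16 striated and smooth muscle genes compared, 10 were below 0, 1 was 2-fold lower and 1 2-fold higher, with a median of -0.34. Among those with at least 100 reads the cardiac troponin Tnnt2 was farthest from 0, at -0.51, followed by Hspb6 and Nexn, both at -0.40. The pair past 2-fold were scarce and are named after their values were seen, Mylpf with 26 reads with BPA and 50 in control and Tnnc1 with 43 and 16.

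The list of targets that SRF shares with the ternary complex factors, the branch driven by growth factor signalling, had a median of -0.27. It also holds genes of these factors themselves, Elk1 at 0.30, Elk3 at -0.29 and Elk4 at 0.01. Of the 15 genes 12 were below 0, 2 were at least 2-fold lower and 0 were 2-fold higher. The same shares of all genes compared were 48.1%, 4.61% and 6.88%. Egr2 had 25 reads with BPA and 79 in control, a ratio of -1.73 (-2.48 to -1.11), Egr1 was at -0.92, and Srxn1, which is also an antioxidant gene, lay the other way at 0.84. The other one past 2-fold was Egr3, with 10 reads with BPA and 25 in control, named after its values were seen. For actin monomer and filament turnover the median over 23 genes was -0.15, 18 were below 0, 0 were 2-fold lower and 1 was 2-fold higher, Tmod1, with 13 reads with BPA and 0 in control. The lowest with at least 100 reads were the disassembly factor Wdr1 at -0.62 and the monomer-binding thymosins Tmsb4x at -0.60 and Tmsb10 at -0.55. The 18 branched-filament genes of the Arp2/3 and WASP group centred on 0.00, 8 of them below 0, and none was past 2-fold in either direction. Within it Actr3 was at -0.67, Arpc1b at -0.29 and Arpc5l at 0.55.

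**Figure D5:**
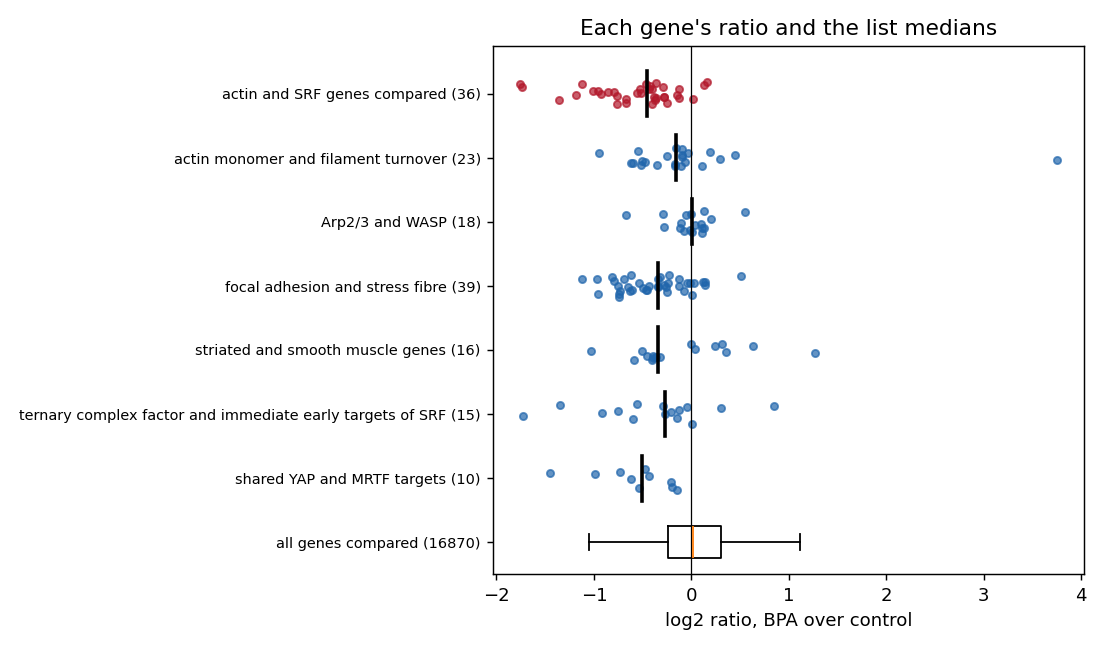
Log2 ratio of BPA over control (horizontal axis) for each gene of the 36 actin and SRF genes compared (red) and of 6 pathway lists (blue), with list medians as black bars and the number of genes compared in brackets. The box at the bottom spans the quartiles of all 16870 genes compared, its whiskers end at the last gene within 1.5 box lengths, and genes beyond are not drawn. The medians run from -0.51 for shared YAP and MRTF targets and -0.45 for the actin and SRF genes to 0.00 for Arp2/3 and WASP.

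The circRNA libraries gave a second readout of the same genes. A circRNA is a closed RNA circle, as a rule made by back-splicing. From 18 of the 37 host genes came 36 circRNAs, with 51 back-splice events with BPA and 57 in control. That was 0.290% of the 17586 events of the BPA library and 0.442% of the 12909 of the control library. By their deposited type, 28 of the 36 circRNAs were exonic, 5 intronic and 3 exon-intron. Of the 36, 23 were seen once, 5 appeared in both libraries and 2 had at least 10 events together. The junctions of those 2 are shown with the end of the last exon in lower case and the start of the first exon in capitals, 15 bases each, read from GRCm38.p6.
Myh9 circle: ggagcatgatgcaggGTCCTGGCCGCAAGT
Myh10 circle: tcaggacttatctatAGGCAATTACTTTTG
The Myh9 circle (chr15:77807868-77813231, minus strand) runs over exons 2 and 3 of the gene, and had 12 events with BPA and 21 in control. Its log2 ratio after TMM scaling was -1.06, with an interval from -2.24 to 0.01 that held 0. The Myh10 circle (chr11:68699210-68699585, plus strand) is exon 2 alone, 376 bases, and had 15 events with BPA and 1 in control. Its ratio was 3.10 (0.93 to 9.03), while linear Myh10 mRNA was at -0.37. Past 2-fold upward were 17.7% of all 457 circRNAs with at least 10 events, and 10.7% were past 2-fold downward. With 1 of 2 circles on each side, nothing is read from their count.

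Muscle miRNAs were looked at because miR-143 and miR-145a are made from a locus that SRF switches on. Also listed were miR-1a, of skeletal and heart muscle, and miR-206, chiefly of skeletal muscle. Of 14 listed mature miRNAs 7 were analysed here, 6 with at least 10 reads. Only the sequence of miR-206-3p (chr1:20679055-20679076, plus strand) is shown, with the seed in capitals.
miR-206-3p: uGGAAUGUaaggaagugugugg
It had 8706 reads with BPA and 2062 in control, a log2 ratio of 0.58 (0.51 to 0.65) after TMM scaling and 2.26 (2.19 to 2.33) by share of the library. miR-143-3p had 87730 reads with BPA and 49151 in control, -0.66 after TMM and 1.02 by share, so its direction rests on the scaling. miR-145a-5p had 3083 reads with BPA and 1066 in control, 0.04 after TMM and 1.72 by share. The median of all miRNAs was 0.02 after TMM and 1.70 by share, so miR-143-3p lay below the median and miR-145a-5p near it on both scales. miR-1a-3p, miR-145a-3p and miR-143-5p had 747, 197 and 120 reads with BPA and 133, 39 and 18 in control, and TMM ratios of 0.99, 0.83 and 1.21. After TMM 1 of these 6 was at least 2-fold higher and 0 were 2-fold lower, where 12.3% and 15.7% of all miRNAs were. By share 6 of 6 were 2-fold higher and 0 lower, where 78% and 2.8% of all miRNAs were. miR-499-5p had 6 reads with BPA and 0 in control.

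A p-value for 1 library against 1 stands in the authors' deposited table. Per that table, 2 of the 37 genes and 147 of all genes had a p-value under 0.05, the lowest among the 37 was 0.0475, and 0 genes had an adjusted p-value under 0.05.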

How the data were processed

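Strand-specific mRNA libraries were made per the labels' protocols, and STAR and StringTie, with the builds GRCm38 and mm10, are named for them in the submitters' processing notes. Which counter and annotation release were used is not stated. The deposited values for mRNA are log2 of 1 plus a read count that the authors had scaled by 1 factor per library. Whole reads were recovered within 0.001 for 100% of the values by dividing by each library's step, 0.962 with BPA and 1.04 in control. The deposited circRNA values are log2 of 1 plus 2 per back-splice event, and the deposited miRNA values are read counts. The authors' deposited p-values are quoted only. A further 8 columns, of group values and TPM, were not used. STAR for circRNA and Bowtie 1.1.0 for miRNA are named in the same notes.

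Ratios are BPA over control on the authors' scale with a pseudocount of 1, for genes with at least 10 reads together. For circRNA and miRNA, 0.5 was added and libraries were scaled with TMM (trimmed mean of M-values; edgeR 4.0.16, R 4.3.3). Intervals are exact conditional binomial (Clopper-Pearson, 95%, SciPy 1.17.1), tested on simulated data. Because there is 1 library per group, 2-fold stands in for a call. A count of 0 allows up to 3 reads, 0.0907 RPM with BPA and 0.0928 RPM in control. Exon lengths, positions and shared 50-base stretches are from GENCODE M21 (GRCm38) and promoter and miRNA sequences from RefSeq. Genes named in full were those past 2-fold, the 3 smallest groups and paralog pairs, with the rest of the 37 added. Of each other list, the 3 genes with the largest absolute ratio among those with at least 100 reads were named. Members and lists were chosen with earlier results of these data known. A further pathway list, beside the 6 reported, is not reported here.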

Additional observations from a re-analysis of the deposited data

How the results depend on the processing

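No paired analysis was possible because each group had 1 library. Ratios of all 36 genes kept their sign with TMM, with library totals and with pseudocounts of 0.5 and 5. Library totals moved the median of the 36 genes to -0.37, of SRF and cofactors to -0.21, of cytoplasmic actin and turnover to -0.39, of non-muscle myosin to -0.29, of the paralogs to -0.36 and of the adhesion genes to -0.33. With the trend on level removed, an alternative chosen after seeing the data, the medians were -0.34 for all, -0.30 for cytoplasmic actin and turnover, -0.20 for non-muscle myosin, -0.34 for the paralogs and -0.32 for the adhesion genes. Myl12a, Tpm3 and Mylk changed sign under it. The count at least 2-fold lower was 6, 5 by library totals, where Zyx dropped out, and 14 at 1.5-fold. With filters of 1000 and 10000 reads, also chosen after seeing the data, it was 3 and 2, from fewer genes tested, and the adhesion median was -0.58 at 10000. With no filter, 1 gene, Myh11, was 2-fold higher. With at least 50 reads, 0 turnover genes were 2-fold higher and 1 ternary complex factor target 2-fold lower. By share of all miRNA reads the ratios were 1.02 for miR-143-3p, which reversed, 2.89 for miR-143-5p, 2.51 for miR-145a-3p, 1.72 for miR-145a-5p, 2.67 for miR-1a-3p and 2.26 for miR-206-3p. Counting Tpm1 with Tpm2, also chosen after seeing the data, reversed the difference in tropomyosin share (BPA minus control) to -5.24 percentage points, against 0.215 for Tpm2 alone. The cause of these shifts was not tested. Depth limits Actg2, Lmod1, Cnn1, Mylk and Myh11, and most circRNAs.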
